A study of Mus musculus with 4 samples.

Results

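Susd2, Psd2 and Pmp22 are 3 genes whose read counts were much larger in mouse CD4+ T cells given a Tox2 retrovirus than in cells given a control retrovirus. They were chosen from the 11027 genes listed for the series on that very difference, large in both cultures of the study, so the difference itself is described below and not tested. The RNA came from wild-type C57BL/6 mice aged 7 to 8 weeks. Naive CD4+ T cells of spleen and lymph nodes were activated, infected in neutral conditions and sorted for GFP, and only then placed in 1 of 2 cultures. Both cultures held blocking antibodies to IFN-gamma, IL-4 and IL-2. The Th0 culture held nothing else that the labels name, and the Tfh-like culture also held IL-6, a cytokine that acts through STAT3 and favours T follicular helper cells. The viruses carried Tox2 with GFP, or GFP only. Each of the 4 combinations (Th0 with GFP, Tfh-like with GFP, Th0 with Tox2, Tfh-like with Tox2) gave 1 library, so nothing here measures the spread between replicates, and how many animals gave the cells is not given in the sources used here. Tox2 was forced from a retrovirus in sorted cells, which is a different setting from Tox2 induced in a Tfh cell.

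The 3 proteins have different jobs. SUSD2 is a single-pass membrane protein with a sushi domain, a fold best known from complement regulators and also present in the IL-2 and IL-15 receptor alpha chains. In CD8+ T cells it has been described as binding the IL-2 receptor alpha chain and damping IL-2 signalling. PSD2, also called EFA6C, is an exchange factor with Sec7 and pleckstrin homology domains that loads the small GTPase ARF6 with GTP, a step in membrane recycling and actin rearrangement at the cell surface. It is best known from neurons. PMP22 is a small membrane protein with 4 crossings, related to the EMP proteins and the claudins. It is a major component of peripheral myelin made by Schwann cells, extra copies of its gene cause a common inherited neuropathy in people, and it was first found as a growth-arrest gene in fibroblasts.

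The libraries held 13015283 to 13673774 counts. Tox2 counts followed the virus named in each label: with GFP there were 144 in Th0 and 851 in the Tfh-like culture, and with Tox2 there were 35297 and 32246. Viral and cellular Tox2 transcripts are counted together. All 10 CD4 T-cell markers looked for were listed, with a summed level of 6330 to 6770 CPM (counts scaled to library size by TMM). Of the markers of other cells, Lyz2, Csf1r, Ms4a1, Col1a2, Cdh5 and Sox10 were not among the listed genes, while Cd8b1, Cd79a, Itgam, Cd14, Cd68, Pecam1 and others were. The 3 listed of 8 myeloid markers summed to 8.27 to 14.3 CPM, the 1 listed of 6 B-cell markers to 0.766 to 1.73, and Pecam1 alone of 4 endothelial markers to 89.2 to 182. The summed level of the listed dendritic cell markers (Xcr1, Zbtb46 and H2-Ab1, 3 of 8) moved with the culture. It went from 107 CPM in Th0 to 328 in the Tfh-like culture with GFP and from 99.3 to 285 with Tox2. The sum of the listed stromal markers (Col1a1, Pdgfrb and Lum, 3 of 8) moved too. In Th0 and then the Tfh-like culture it was 12.5 and 42.6 CPM with GFP, and 10.3 and 28.9 with Tox2. Such sums do not show which of the markers moved. Itgax, Flt3, Siglech, Clec9a and H2-Aa of the dendritic markers, and Col1a2, Col3a1, Pdgfra, Pdpn and Dcn of the stromal markers, were not among the listed genes. Whether such cells were present, and any part of theirs in the culture results below, was not tested. Schwann cell markers were represented by Mbp alone, at 235 to 296 CPM, a gene that T cells also transcribe. Neuron markers, represented by Tubb3 and Map2, summed to 10.9 CPM in Th0 and 5.51 in the Tfh-like culture with GFP, and to 14.0 and 10.5 with Tox2; their bearing on the results was not tested.

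All 3 genes were scarce without forced Tox2 and clearly present with it. Levels are given as the deposited FPKM, which is per length of the gene and so can be set beside each other across genes, with a 95% Poisson interval that covers counting error only. In Th0 with GFP the levels were 0.40 FPKM for Pmp22 (interval 0.228 to 0.649), 0.307 for Psd2 (0.199 to 0.454) and 0.240 for Susd2 (0.131 to 0.402). These intervals overlap, so no order is read there, though overlap does not show that the levels were equal. Between 3.52% and 7.11% of the listed genes had a lower FPKM. In Th0 with Tox2 the order was clear: 22.7 FPKM for Susd2 (21.5 to 23.9), 5.39 for Psd2 (4.90 to 5.92) and 2.88 for Pmp22 (2.38 to 3.45). Susd2 then lay above 81.1% of listed genes, Psd2 above 42.5% and Pmp22 above 27.9%. In Tfh-like with GFP the levels were again low. Susd2 had 0.393 FPKM (0.246 to 0.595), Pmp22 0.287 (0.143 to 0.513) and Psd2 0.141 (0.0705 to 0.253). All these intervals overlap, those of Susd2 and Psd2 only between 0.246 and 0.253. In Tfh-like with Tox2 Susd2 stood first at 6.61 FPKM (5.96 to 7.31), followed by Pmp22 at 3.94 (3.34 to 4.61) and Psd2 at 3.11 (2.73 to 3.52), the last pair overlapping.

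**Figure D1:**
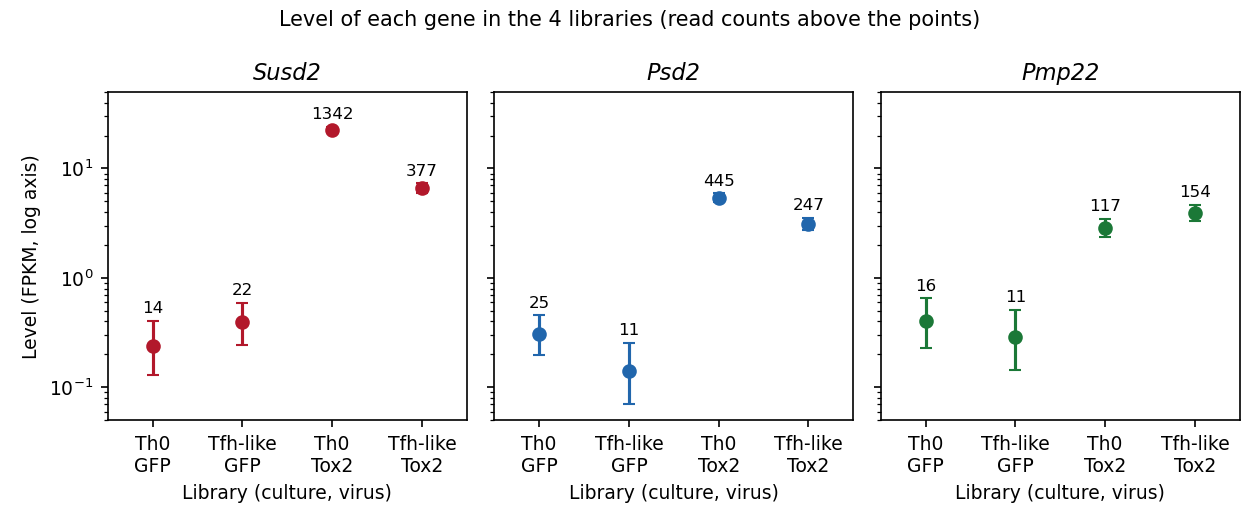
Level of Susd2, Psd2 and Pmp22 in FPKM on a log axis in each of the 4 libraries, with 95% Poisson intervals and the read count above each point. In each panel the 2 libraries with Tox2 lie far above the 2 with GFP, and the interval bars do not meet. The genes were chosen on this difference.

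Each gene passed the filter of at least 1 CPM in at least 1 library, as did 10960 of the listed genes, and each was at least 2-fold higher with the Tox2 virus in both cultures. Of the tested genes 1.23% were 2-fold higher in both, 3.18% in Th0 and 2.86% in Tfh-like. Nothing is read from this, since the 3 were chosen on it. Ranked by the smaller of the 2 folds, Tox2 itself stood at place 1, Psd2 at 2, Susd2 at 3 and Pmp22 at 15. The selection has no threshold to lie just inside or outside of. Among the genes between them, Cxxc5 had a smaller fold of 3.87 on the log2 scale and Kcnmb1 of 3.65.

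**Figure D2:**
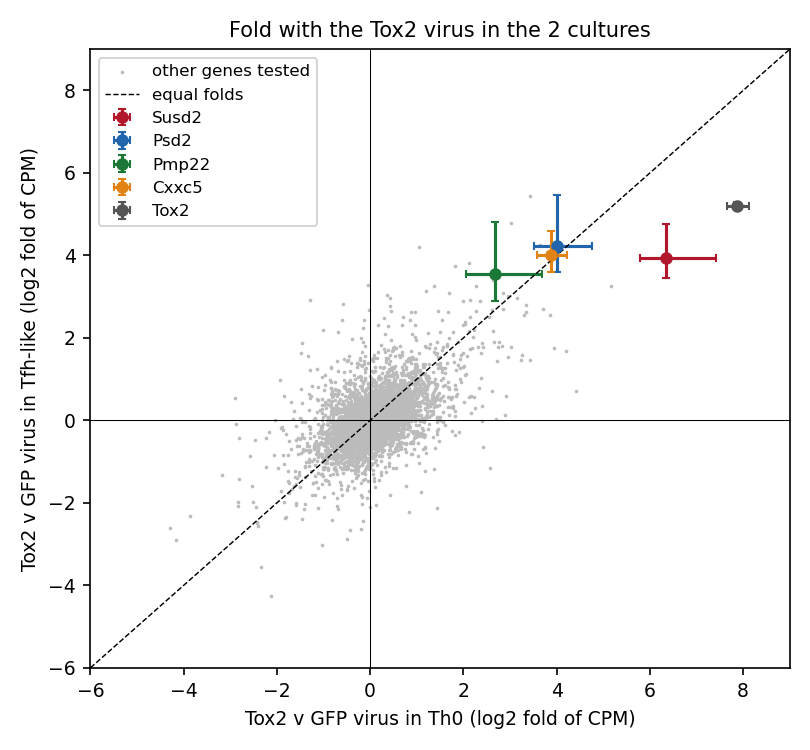
Log2 fold of CPM between the Tox2 and GFP viruses in Th0 (x) and in Tfh-like (y) for every tested gene, with 95% counting intervals for the named genes. Susd2 and Tox2 lie below the line of equal folds, while the intervals of Psd2, Cxxc5 and Pmp22 come close to it or cross it.

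Susd2 (ENSMUSG00000006342.15; GRCm38 chromosome 10, 75636706 to 75644008, minus strand) gave 14 counts in the Th0 library and 22 in the Tfh-like library with the GFP virus, against 1342 and 377 with the Tox2 virus. Both libraries with Tox2 were high, which the choice of the gene requires, yet Th0 with Tox2 stood well above Tfh-like with Tox2. The ratio of scaled counts was 92.8 in Th0 (95% counting interval 55.1 to 170), or 6.34 as a log2 fold with a prior count of 2. In Tfh-like it was 16.7 (10.9 to 27.0), or 3.95 on the log2 scale. The Tox2 fold was therefore lower in Tfh-like by 2.40 on the log2 scale (-2.40, counting interval -3.32 to -1.47), the 15th lowest of 10960 such differences. No replicate is left to test that difference. Tox2 itself had a difference of -2.67 (-2.92 to -2.41), which came from its GFP libraries: it was higher in Tfh-like with GFP by 2.59 and nearly equal in the libraries with Tox2 (-0.08). For Susd2 the difference came mostly from the libraries with Tox2.

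Pmp22 (ENSMUSG00000018217.12; GRCm38 chromosome 11, 63128982 to 63159547, plus strand) gave 16 counts in the Th0 library and 11 in the Tfh-like library with the GFP virus, against 117 and 154 with the Tox2 virus. The libraries with Tox2 were close to each other. The ratio with the Tox2 virus was 7.08 in Th0 (4.18 to 12.8; log2 fold 2.68) and 13.7 in Tfh-like (7.42 to 27.9; log2 fold 3.56). The folds differed by 0.88 on the log2 scale, with a counting interval of -0.21 to 1.96 that includes 0. Pmp22 is transcribed from more than 1 first exon, and counts per gene do not say which was used. RefSeq (GRCm38.p6) lists 4 starts for it. The 250 bases before starts 1 and 2 are shown because these windows differ in CpG and GC-box content. GENCODE M21 has a transcript start close to each of starts 1, 3 and 4, but none close to start 2. Of the 3 genes, 1 was matched in the RefSeq promoter table. Susd2 and Psd2 were not. Capitals mark GC boxes (GGGCGG or its reverse complement CCGCCC), and the strand shown is that of the gene, 5′ to 3′.
Pmp22 start 1, chr11:63128732-63128981: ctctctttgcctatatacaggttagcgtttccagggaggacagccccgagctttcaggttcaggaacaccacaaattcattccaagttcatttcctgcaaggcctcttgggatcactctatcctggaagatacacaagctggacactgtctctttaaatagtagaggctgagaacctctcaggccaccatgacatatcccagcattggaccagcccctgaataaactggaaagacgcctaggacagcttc
Pmp22 start 2, chr11:63131207-63131456: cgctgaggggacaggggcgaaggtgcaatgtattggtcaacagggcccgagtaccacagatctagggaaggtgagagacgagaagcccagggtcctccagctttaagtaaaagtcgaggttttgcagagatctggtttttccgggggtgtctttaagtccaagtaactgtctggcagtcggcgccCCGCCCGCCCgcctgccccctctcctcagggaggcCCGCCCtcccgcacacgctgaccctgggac

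Over the full windows of 300 bases, which run on past the start, start 1 had 3 CpG dinucleotides and 50.7% G and C, and start 2 had 18 CpG and 60.0%. The median of 32851 RefSeq promoter windows was 7 CpG and 52.7%. The window of start 2 held 3 GC boxes, of which 2 overlap, and that of start 1 held none. A GC box on either strand was present in 35.7% of all windows. Neither window held a STAT motif (TTCNNNGAA, in 8.30% of windows), an AP-1 motif (TGANTCA, 7.81%), a TCF/LEF core (CTTTGA, 16.0%) or a TATA box (TATAAA, 13.6%), each searched on both strands. Starts 3 and 4 had 20 and 30 CpG, and start 4 also had 3 GC boxes. The STAT, AP-1, TCF/LEF and TATA motifs were absent from those windows as well.

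Psd2 was higher with the Tox2 virus by nearly the same fold in both cultures. It gave 25 counts in the Th0 library and 11 in the Tfh-like library with the GFP virus, against 445 and 247 with the Tox2 virus. The libraries with Tox2 were high in both cultures, and with either virus the Th0 library had the larger count. The ratio with the Tox2 virus was 17.2 in Th0 (11.5 to 26.9; log2 fold 4.0) and 21.9 in Tfh-like (12 to 44.5; log2 fold 4.23). The 2 folds differed by 0.23 on the log2 scale, with a counting interval from -0.75 to 1.21. Unlike the direction for Susd2, the sign of this small difference was not stable, and with a prior count of 10 it was -0.06.

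Psd2 (ENSMUSG00000024347.16) lies on GRCm38 chromosome 18, 35964830 to 36014715, plus strand. For each of the 3 genes, 0 exonic bases were shared with exons of another gene in GENCODE M21, and 0 of its 50-base words (3530 for Susd2, 4925 for Psd2, 2300 for Pmp22) occurred in a transcript of another gene on either strand. The length behind the deposited FPKM was about 3.43 kb for Susd2, 4.79 kb for Psd2 and 2.35 kb for Pmp22. The exons of GENCODE M21 cover 3435, 4785 and 2354 bases of these genes.

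The genes were not chosen on the effect of the culture, and it differed among them. Yet the test of that effect is not independent of the choice. It uses the same 4 libraries, and its spread comes partly from the Tox2 folds on which the genes were chosen. In an edgeR fit over both viruses, Susd2 and Psd2 passed as lower in the Tfh-like culture and Pmp22 did not pass. For Susd2 the estimate is not an even average of the viruses. With the GFP virus by itself Susd2 was not lower (log2 fold 0.62, counting interval -0.34 to 1.77). Susd2 fell by 1.42 on the log2 scale (SE 0.38, adjusted p = 0.0390, edgeR quasi-likelihood test over 4 libraries with virus as a term and Benjamini-Hochberg adjustment over 10960 genes). Psd2 fell by 0.87 (SE 0.21, edgeR adjusted p = 0.0262). Pmp22 had 0.20 (SE 0.31, edgeR adjusted p = 0.678). Of all tested genes 9.96% were lower in Tfh-like by this test and 14.3% higher, that is 1092 and 1564 genes, and with library totals as the only scaling 1649 and 1500. The test has 1 residual degree of freedom, which is the difference of the Tox2 folds between cultures moderated across genes. DESeq2, with the same model, passed neither Susd2 (-0.61, SE 1.06, adjusted p = 0.848) nor Psd2 (-0.92, SE 0.40, adjusted p = 0.112).

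The pairs of libraries behind these estimates were alike for Psd2 and unlike for Susd2. Psd2 was lower in Tfh-like by 1.02 on the log2 scale with GFP (-1.02, counting interval -2.31 to -0.07) and by 0.79 with Tox2 (-0.79, -1.03 to -0.57). Susd2 was 3.43-fold lower in Tfh-like with Tox2 (3.06 to 3.85), a log2 fold of -1.77, whereas with GFP its log2 fold was 0.62 with an interval of -0.34 to 1.77. The culture estimate of Susd2 thus rests on the libraries with Tox2. Pmp22 had a log2 fold of -0.43 with GFP (-1.75 to 0.70) and of 0.44 with Tox2 (0.09 to 0.81), the latter a ratio of 1.37. By the pairwise criterion of a 2-fold difference, Psd2 was lower with GFP, as were 3.11% of tested genes, and Susd2 was lower with Tox2, as were 2.86%. The Psd2 fold lay close to that threshold, and with a prior count of 10 it was -0.71, short of 2-fold. Tox2 without a Tox2 virus was 6.08-fold higher in Tfh-like (5.09 to 7.31). In the same pair of libraries the ratio was 1.62 for Susd2 (0.792 to 3.42), 0.708 for Pmp22 (0.297 to 1.62) and 0.453 for Psd2 (0.201 to 0.954). These libraries also differ in IL-6, and any link between Tox2 and the 3 genes there was not tested.

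**Figure D3:**
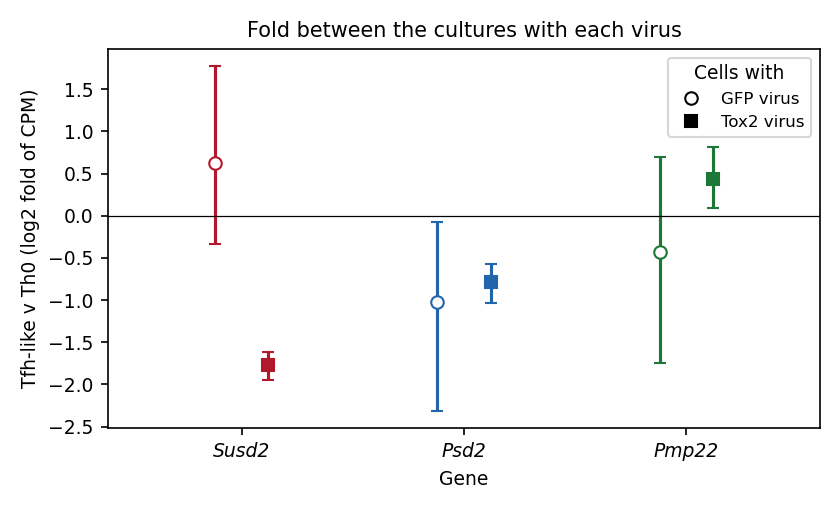
Log2 fold of CPM between the Tfh-like and Th0 cultures for each gene with the GFP virus (open circles) and the Tox2 virus (filled squares), with 95% counting intervals. Psd2 lies below 0 with both viruses, and Susd2 lies below 0 with the Tox2 virus and above it, with an interval that includes 0, with GFP.

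The gene next to Psd2 among the listed genes was also the gene whose profile was most like it. Likeness was the Euclidean distance between log2 CPM profiles over the 4 libraries, each centred on its own mean, so that 0 is the same shape and the unit is log2. Cxxc5, which encodes a CXXC zinc finger protein, lay at 0.28 from Psd2, with 89 counts in Th0 and 37 in the Tfh-like culture with GFP, and 1372 and 638 with Tox2. Its log2 folds with Tox2 were 3.87 in Th0 and 4.0 in the Tfh-like culture, and its culture folds were -1.18 with GFP and -1.05 with Tox2. Cxxc5 lies to the left of Psd2 on the same strand, with 102 kb and 4 RefSeq genes that start between them and are not listed in the files. Next after it came Slc16a11, a transporter of the monocarboxylate family, at 1.09 and the cytokine gene Il13 at 1.17. Il13 had only 1 to 61 counts.

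Pmp22 was most like Olfm2, an olfactomedin gene, at a distance of 0.21. Olfm2 had 5 counts in Th0 and 4 in the Tfh-like culture with GFP, and 43 and 62 with Tox2, so this likeness rests on few reads. Kit, the receptor of stem cell factor, followed at 0.67 and Tnip3 at 0.68. Susd2 had no near match. Its nearest gene was Psd2 at 1.70, before Cxxc5 at 1.83 and Ikzf2, encoding the Ikaros family factor Helios, at 2.10. Susd2 and Pmp22 lay 2.67 apart and Psd2 and Pmp22 1.39. These distances include the Tox2 folds on which the genes were chosen, so they describe the profiles and nothing apart from that choice.

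Apart from Cxxc5, none of the genes around the 3 had a Tox2 fold as large as theirs: over the other 11 neighbours the log2 folds ranged from -0.80 to 0.27. Ddt (-0.56 in Th0 and -0.80 in the Tfh-like culture), Snrpd3 (-0.42 and -0.43) and Pura (-0.23 and -0.19) were lower with counting intervals that left out 0. In a single culture the interval also left out 0 for Cox10 (-0.30, Th0). In Tfh-like it did so for Hs3st3b1 (-0.40), Cabin1 (-0.13), Tvp23b (0.22) and Ube2d2a (0.10). Of the 12 nearest listed genes (2 on each side of each gene), 1 rose and 1 fell with Tox2 by the edgeR test over both cultures, against 4.07% and 2.74% of tested genes. The one that rose was Cxxc5, whose large fold was known beforehand. The one that fell was Ddt, 127 kb to the right of Susd2, by 0.68 on the log2 scale (edgeR adjusted p = 0.0259). Cabin1, an inhibitor of calcineurin whose gene ends 2.10 kb from Susd2, had log2 folds of 0.06 and -0.13 and between 2152 and 2398 counts. Ggt5, on the other side of Susd2, had 9 to 19 counts. Around Pmp22 the nearest listed genes, Tvp23b and Hs3st3b1, were 234 kb and 725 kb away and had log2 folds of -0.04 and 0.22, and of 0.23 and -0.40, in Th0 and Tfh-like.

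**Figure D4:**
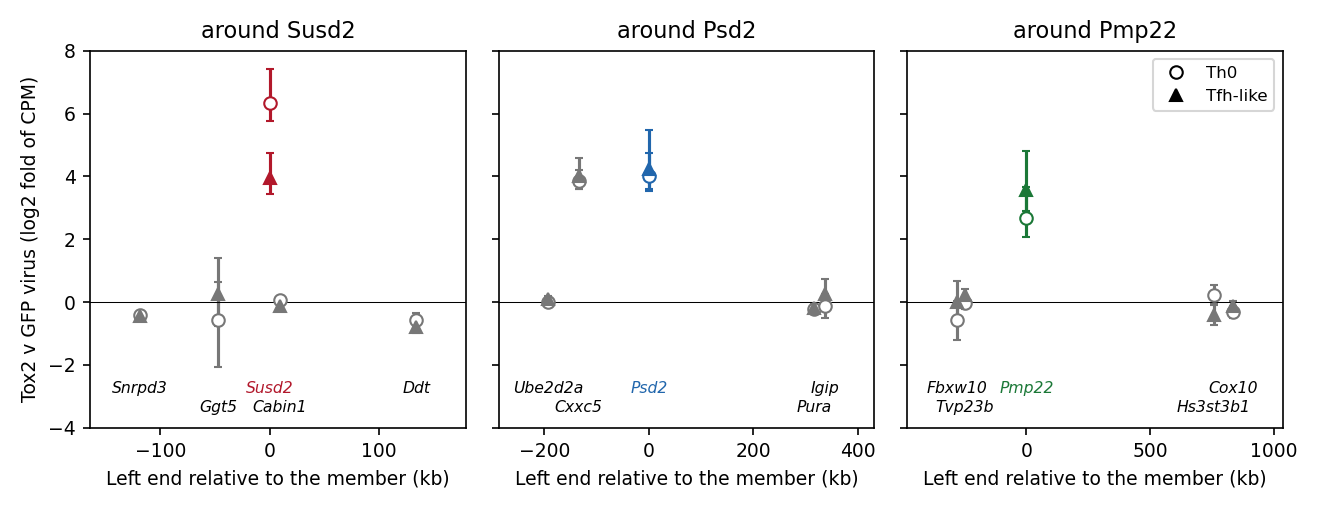
Log2 fold of CPM between the Tox2 and GFP viruses for each of the 3 genes (coloured) and the 2 nearest listed genes on each side (grey), against the distance of their left ends in kb, in Th0 (open circles) and Tfh-like (filled triangles), with 95% counting intervals. Apart from Cxxc5 beside Psd2, the neighbours lie between -0.80 (Ddt) and 0.27.

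Genes related to the 3 by family or pathway were taken from fixed lists, and their counts are to be read against all tested genes, of which 4.07% rose and 2.74% fell with Tox2 by edgeR and 27.4% had an unadjusted p under 0.05. Among ARF exchange factors other than Psd2, 1 of 13 tested rose and 0 fell by edgeR, with 3 at an unadjusted p under 0.05, and the median log2 folds were 0.15 and 0.00 in the 2 cultures (Th0, then Tfh-like), where the median of all tested genes was 0.00 in each. The one that rose was Cyth3, a cytohesin, by 1.20 (SE 0.16, edgeR adjusted p = 0.0122). It went from 1560 to 3040 counts in Th0 and from 575 to 1675 in the Tfh-like culture. Like Psd2 it fell with the Tfh-like culture, by 1.09 (edgeR adjusted p = 0.00435). The nearest relatives Psd and Psd4 had log2 folds of -0.27 and -0.11 in Th0 and of 0.00 and -0.28 in Tfh-like, and Psd3 was not among the listed genes. Psd4 had 4416 to 5646 counts and Psd 552 to 808. Arf6, the substrate of the EFA6 proteins, had 4230 to 5067 counts and log2 folds of -0.21 and -0.09. Of 6 ARF genes 0 passed by edgeR, DESeq2 or limma-voom, with 3 at an unadjusted p under 0.05 in edgeR. Of 20 ARF GTPase-activating genes Adap1 fell by 0.86 (SE 0.14, edgeR adjusted p = 0.0241) and none rose, with 4 at an unadjusted p under 0.05 in edgeR. A share of 1 in 13 or 1 in 20 is not set apart from the 4.07% and 2.74% of all genes.

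Among the other sushi domain genes 0 of 13 passed for Tox2 by edgeR, 0 by DESeq2 and 1, Susd3, by limma-voom, and 3 had an unadjusted p under 0.05 in edgeR, as did 27.4% of all tested genes. The list's medians were 0.08 in Th0 and 0.40 in the Tfh-like culture. Susd3 went from 378 to 510 counts with Tox2 in Th0 and from 1435 to 2151 in the Tfh-like culture (0.47, edgeR adjusted p = 0.0525). It rose with the Tfh-like culture by 2.05 (edgeR adjusted p = 0.000187). The fall of Susd2 with that culture was seen in the libraries with Tox2 and not in those with GFP. In the list of IL-2 receptor and signalling genes 0 of 11 passed for Tox2 by edgeR, DESeq2 or limma-voom, with 5 at an unadjusted p under 0.05 in edgeR and medians of 0.00 and -0.20. Il2ra, encoding the alpha chain, had a log2 fold with Tox2 of 0.00 in Th0 and of -2.11 in the Tfh-like culture. That difference was not tested. Both cultures held a blocking antibody to IL-2, and any bearing of Susd2 on the genes of this list was not tested. Cish, a feedback inhibitor induced by STAT5, went from 962 to 955 counts with Tox2 in Th0 and from 2658 to 1960 in the Tfh-like culture. Other genes of the list did move in Th0. Socs2 had log2 folds of -0.62 (-1.04 to -0.22) in Th0 and -1.57 (-2.11 to -1.14) in the Tfh-like culture. Il2 had -0.55 (-0.89 to -0.22) and -0.67 (-1.25 to -0.14). In the other direction, Stat5a and Stat5b had 0.33 and 0.57 in Th0, but -0.19 and -0.05 in the Tfh-like culture.

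Of the tetraspan genes related to Pmp22, 8 of 20 were tested, and by edgeR 1 fell and none rose with Tox2, with 3 at an unadjusted p under 0.05 (medians -0.09 and -0.08), against 2.74% and 4.07% of all tested genes. The one that fell was Nkg7, a membrane protein of cytotoxic granules, which fell by 1.39 (SE 0.13, edgeR adjusted p = 0.00533). Emp1 went from 102 to 141 counts with Tox2 in Th0 and from 362 to 690 in the Tfh-like culture (0.70, SE 0.16, edgeR adjusted p = 0.0545), and passed by limma-voom only. Emp3 had 906 to 1247 counts and Perp 1048 to 1183. Of 14 myelin and Schwann cell genes 5 were tested and 0 passed for Tox2 by edgeR, DESeq2 or limma-voom, with 0 at an unadjusted p under 0.05 in edgeR (medians 0.04 and 0.14). Mbp and Cnp had 3072 to 4114 and 3022 to 3537 counts, and Mag was not listed.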

How the data were processed

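RNA-seq of 4 libraries was analysed, 1 for each group. Per the file headers and the values, the deposited files give whole-number read counts per gene, not normalized by the authors, and FPKM, which the authors computed. Per the submitters' processing notes the tools were edgeR, featureCounts, Subread, Bowtie2, MACS2 and Trim Galore 0.4.4, without role or order, and the build mm10 (GRCm38). The strand setting is not given in the sources used here. The deposited list was already reduced to genes above a low level. Columns of other samples numbered 0.

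TMM scaling used all listed genes (factors with GFP 1.03 in Th0 and 0.966 in the Tfh-like culture, with Tox2 1.02 and 0.987; edgeR 4.0.16, R 4.3.3). Genes with at least 1 CPM in at least 1 library were tested. Each pair of libraries was described by the log2 fold of CPM with a prior count of 2 and an exact 95% conditional binomial interval, and called 2-fold apart where the interval also left out 0. The reads carry no molecular identifiers that would make them independent molecules, so all intervals cover counting error only. Effects of culture and virus over all 4 libraries came from edgeR's quasi-likelihood test on a model with both terms and no interaction, threshold 0.05 after Benjamini-Hochberg adjustment. Its p-values do not measure the spread between replicates. The procedure was run on simulated counts with a culture change only. These held no virus effect and no difference of the Tox2 folds between cultures, so the run cannot show how the test handles such a difference. DESeq2 1.42.0 and limma-voom (limma 3.58.1) were alternatives.

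The 3 genes, the related lists, the markers and the rule for named genes were chosen with earlier results of these data known. The rule takes the 3 genes, Tox2, the 2 nearest listed genes on each side of each, the 3 genes nearest in profile (predicted genes left out), and up to 4 genes of each list: those that passed for Tox2, else the most abundant. Other genes (Kcnmb1, and list members such as Susd3, Cd46, Emp1, Il2ra, Cish, Socs2, Il2, Stat5a, Stat5b and the EFA6 genes) were named after their values were seen. Gene positions are from GENCODE M21 and gene order and promoters from RefSeq GRCm38.p6.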

Additional observations from a re-analysis of the deposited data

Results flagged for a closer look

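With 1 library a group, these are signs of opposite direction between single pairs of libraries, and neither difference was tested. Susd2 had a log2 fold between Tfh-like and Th0 of 0.62 with GFP (counting interval -0.34 to 1.77) and of -1.77 with Tox2 (-1.95 to -1.61). Pmp22 had -0.43 with GFP (-1.75 to 0.70) and 0.44 with Tox2 (0.09 to 0.81). For both genes the interval with GFP includes 0, at 14 and 22 counts for Susd2 and 16 and 11 for Pmp22, so the opposite signs are not established at this depth. Of all tested genes 3.24% had opposite signs with both intervals leaving out 0.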

How the results depend on the processing

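No paired analysis was possible because each group holds 1 library, and for the same reason no replicate could be left out. The log2 folds of the 3 genes in the 4 pairs kept their sign under 2 other scalings, the authors' FPKM scaling, prior counts of 0.5 and 10, and removal of the trend with gene length. With Tox2 they ranged from 5.77 to 6.49 in Th0 and 3.57 to 4.03 in Tfh-like for Susd2, from 3.65 to 4.08 and 3.60 to 4.39 for Psd2, and from 2.24 to 2.78 and 2.95 to 3.71 for Pmp22. The Susd2 fold in Th0 of 5.77, with a prior count of 10, lay just outside its counting interval. The difference of the Tox2 folds ranged from -2.45 to -2.20 for Susd2, 0.70 to 0.93 for Pmp22 and -0.06 to 0.31 for Psd2. With DESeq2 the culture effects of Susd2 (-0.61, adjusted p = 0.848) and Psd2 (-0.92, adjusted p = 0.112) did not pass, and the cause was not tested. Under the other edgeR settings and limma-voom both passed, with adjusted p from 0.00610 to 0.0487 for Susd2 and from 0.0129 to 0.0297 for Psd2. The value of 0.0487 is from TMM factors over tested genes only, an alternative chosen after seeing the data. For background, DESeq2 passed 551 genes as lower in Tfh-like and 191 as lower with Tox2. With library totals alone 1649 were lower in Tfh-like, and 681 were higher and 512 lower with Tox2. At a 3-fold threshold 178 and 187 genes were apart with Tox2 in Th0 and Tfh-like, and 561 and 494 between cultures with GFP and with Tox2, instead of 519, 521, 1194 and 1033. Depth limits the GFP libraries most: the 3 genes had 11 to 25 counts there, and a count of 0 would allow up to 3 counts.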
